A study of Sus scrofa with 30 samples.

Results

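Liver RNA was compared between female pigs of normal birth weight that had been feed-restricted and then refed (NR_T3, 3 pigs) and never-restricted controls of the same birth weight and time point (NK_T3, 3 pigs). Members were taken by their sample titles, which gave 6 of the 30 samples of the series. Normal birth weight meant 1.4 to 1.6 kg. NR pigs received 50% of ad libitum intake from day 76 to day 97, a period of 3 weeks, on a diet of 13.6 MJ ME/kg (metabolizable energy). NR and NK pigs then both ate a 14.1 MJ ME/kg diet ad libitum for 5 weeks. The sample labels give day 103 for this time point, while the treatment protocol and the series text give day 131, so it is called T3 here. The groups set beside them were NK_T2 and NR_T2, other pigs of normal birth weight sampled at the end of restriction, and UK_T3 and UR_T3, control and refed pigs of low birth weight (0.8 to 1.1 kg) at T3. Some values also use UK_T2 and UR_T2, control and restricted pigs of low birth weight at T2. N_T1 and U_T1 were pigs of normal and low birth weight sampled before restriction. UR pigs were restricted to 50% like NR pigs. The labels give day 76 for T1 and day 97 for T2, and the series text gives slightly different days. The labels describe low and normal birth weight piglets selected within a litter and 3 animals drawn at random per group. They do not say which litter a pig came from, or that a replicate number marks a litter, and all pigs were adolescent females.

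The liver stores and releases glucose, makes and oxidizes fatty acids, synthesizes cholesterol, bile acids and most plasma proteins, and adjusts these activities to feed supply through insulin, glucagon and nuclear receptors. Underfeeding shifts liver metabolism toward fat oxidation and glucose production, and refeeding shifts it back toward glycogen and lipid synthesis. Young animals refed after restriction often grow faster than their age would predict, which is called compensatory growth. The comparison at T3 asks whether earlier restriction still marks the liver after weeks of free feeding.

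Signals came from 60-base probes whose target genes could not be named. The scanner files give each of the 60900 pig probes a number and a sequence but an unknown description, and the deposited table names its 19864 rows by human protein identifiers. None of the tables used here pairs either kind of name with a gene symbol, so pathway lists and cell type markers could not be applied, and the labelled tissue was not checked against liver markers. Differences among the largest between the groups lie on 3 probes, for which the scanner files give no identity besides a number and a sequence. Their sequences are therefore shown. Each is printed 5′ to 3′ as the array design gives it, wholly in lower case because no stretch of it is singled out.
PigEx0043257: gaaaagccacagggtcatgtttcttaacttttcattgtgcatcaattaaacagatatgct
PigEx0035821: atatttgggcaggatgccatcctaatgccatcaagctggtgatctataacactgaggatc
PigEx0052348: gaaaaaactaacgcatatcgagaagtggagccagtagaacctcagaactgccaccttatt

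The first stood higher in refed livers and the other two lower. Their GC content was 35%, 45% and 43.3%. By its values over the T3 arrays, PigEx0043257 matched the deposited table's ENSP00000412771, PigEx0035821 matched ENSP00000222381 and PigEx0052348 matched ENSP00000403850. Each row was chosen because its T3 values nearly equalled the probe's signal after normalization. The table values given below for these probes are therefore the same measurement, and their closeness to the probe values was fixed by the match. They were taken from the 5 probes per direction with the largest difference that were well above background on all 6 arrays, did not overlap between the groups, had the same sign in all 3 same-numbered differences and had an unadjusted p under 0.05. In each direction the next 2 probes were numbered beside the first and gave nearly the same values, so 1 probe per run of consecutive numbers is shown, a choice made after the values were seen. These criteria held for 452 of 32105 probes with a higher signal in NR_T3 (1.41%) and for 480 with a lower one (1.5%). Because the 3 probes were picked for their difference, their values below are a description of the extremes.

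Values are log2 of the processed signal minus the 75th percentile of that signal on the same array, so a difference of 1 is a 2-fold difference in relative signal. Array properties differed within the 6 arrays. The share of probes well above background was 55.0% in NK_T3 replicate 1 and between 66.4% and 71.4% on the other 5. The 75th percentile of the signal was 320, 447 and 380 in NK_T3 and 668, 627 and 310.0 in NR_T3. NK_T3 replicate 1 was the only array of its scan, and all of its signals are rounded to 3 significant digits. Over probes it correlated with the other 5 arrays at r = 0.885 to 0.948, whereas NR_T3 replicates 1 and 2 correlated at 0.991. NK_T3 replicates 1 and 2 lay on slide 4, NR_T3 replicates 1 and 2 on slide 3, and only replicate 3 of both groups shared a slide (slide 6), in a scan of its own. NK_T3 replicate 2 and NR_T3 replicates 1 and 2 shared another scan. For replicates 1 and 2, slide and feeding group therefore cannot be told apart. The fits are given with and without NK_T3 replicate 1 and with the replicate number as a pairing block. Counts and correlations that come from no fit have no block, and the sets of 452 and 480 probes were selected with all 6 arrays only. The labels say that animals were drawn at random but tie no sample to a litter or preparation, so p-values measure only the spread between these samples. In bulk liver, fewer cells of a type and less RNA per cell cannot be told apart as the source of a lower signal.

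In the fit of all 12 T3 arrays, no probe separated refed from control livers beyond the spread between arrays, which holds pig and array effects together. With limma and Benjamini-Hochberg adjustment over all 39930 probes kept, 0 probes (0%) passed an adjusted p of 0.05, and the smallest adjusted p was 0.823. At an unadjusted p under 0.05 there were 1645 probes (4.12%), of which 1026 (2.57%) were higher and 619 (1.55%) lower in NR_T3, where 1996 would be reached by chance. Leaving out NK_T3 replicate 1 gave 0 calls, a smallest adjusted p of 1 and 636 probes (1.59%) at an unadjusted p under 0.05. The replicate block gave 0 calls, a smallest adjusted p of 0.357 and 5535 such probes (13.9%), 3567 (8.93%) higher and 1968 (4.93%) lower. The block without NK_T3 replicate 1 gave 0 calls, a smallest adjusted p of 0.702 and 2634 such probes (6.6%). A fit chosen after seeing the data, with the replicate block and only the 5 NK_T3 and NR_T3 arrays other than that one, called 15 probes, 8 higher and 7 lower. That fit rests on 2 pairs, and PigEx0043257, PigEx0035821 and PigEx0052348 were among its calls. On the deposited rows the same fit called 0, with an adjusted p of 0.919 for the row of each of these 3 probes. Leaving out NK_T3 replicate 3 left the calls at 0 and raised the number with an unadjusted p under 0.05 to 6184. The smallest adjusted p was then 0.0724, and 0.0934 without NK_T3 replicate 2. Without any other single NK_T3 or NR_T3 array it was 0.797 or more. The balance of directions changed with the handling of dim probes and with single arrays. It was 406 higher and 393 lower without NR_T3 replicate 1, 600 and 615 without NR_T3 replicate 2, 865 and 817 without NR_T3 replicate 3, and 588 and 612 with slide as a block. Normexp background correction gave 737 higher and 1197 lower, with the median of all differences at -0.18, and keeping all dim probes gave 953 higher and 1724 lower, with the median at -0.11. In a permutation test of 3 pigs against 3 the smallest two-sided p is 0.1, so no single probe could pass 0.05 in an exact test.

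The deposited table gave the same count of calls. In limma on its 19864 rows, 0 passed an adjusted p of 0.05, with 0.877 the smallest, and 915 (4.61%) had an unadjusted p under 0.05, 394 (1.98%) higher and 521 (2.62%) lower. The higher ones were 43.1% of these rows, and 54.4% of 860 rows when the 75th percentile of each column was subtracted. With NK_T3 replicate 1 left out, 0 rows passed and 466 (2.35%) had an unadjusted p under 0.05. The replicate block gave 0 and 2091 (10.5%), and the block without that array 0 and 1104 (5.56%). With limma's array weights 1 row, lower in NR_T3, passed with an adjusted p of 0.0499. The plot of p-values shows how far these 4 fits stand apart for the probes: without NK_T3 replicate 1 small p-values are rarer than an even spread would give, and with the block they are more frequent.

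**Figure D1:**
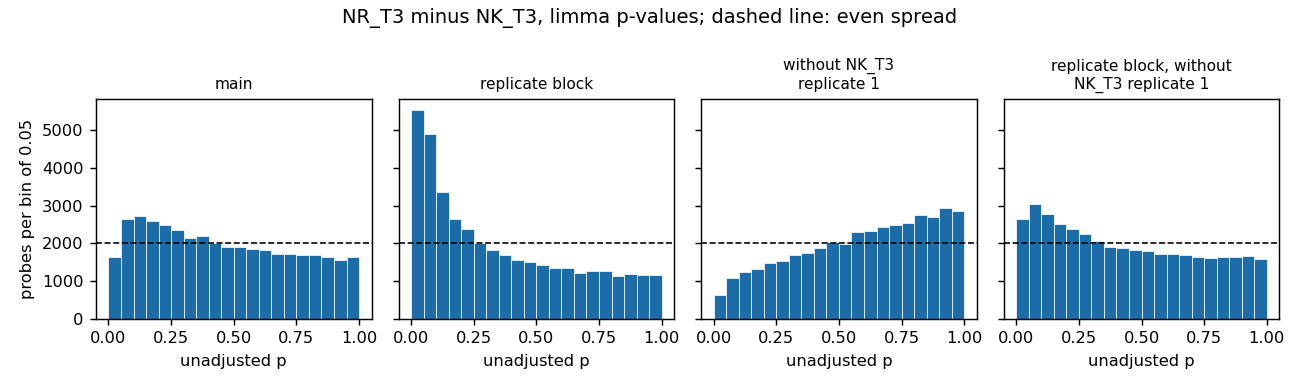
Unadjusted limma p-values of NR_T3 minus NK_T3 for 39930 probes (x axis, bins of 0.05; y axis, probes per bin), in 4 fits from left to right: all 12 T3 arrays, with the replicate block, without NK_T3 replicate 1, and with both changes. The dashed line is an even spread; the leftmost bar holds 1645, 5535, 636 and 2634 probes.

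The precision of a difference limits what 0 calls can show. The median standard error was 0.38 on the log2 scale and the median half-width of a 95% interval was 0.83. The interval lay wholly within a 2-fold difference in either direction for 15208 probes (38.1%), and for 17083 (42.8%) without NK_T3 replicate 1. With the replicate block it did so for 22807 probes (57.1%), and for 27742 (69.5%) with the block and without that array. For the remaining probes a 2-fold difference was not excluded by these intervals. Values spread most within NK_T3, the group that holds the array scanned alone. The part of that array in the spread was not tested. Its limma array weight was low (0.207), and so were those of replicate 3 in NK_T3, NR_T3, UK_T3 and UR_T3 (0.267 to 0.503). The median SD of a probe was 0.50 in NK_T3, 0.39 in NR_T3, 0.34 in UK_T3 and 0.41 in UR_T3. In the groups of the earlier time points it was 0.23 to 0.30. As arrays were not replicated per pig, spread between pigs and between arrays cannot be told apart.

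Counted without a model, the refed and control groups did not overlap for 3186 of 39807 probes (8%), 1499 (3.77%) higher and 1687 (4.24%) lower in NR_T3. Leaving out NK_T3 replicate 1, 4690 of 39859 (11.8%) did not overlap, in a comparison of 3 pigs with 2. Exchangeable arrays, 3 against 3, would not overlap at a share of 0.1, the smallest p of the exact test, and 8% did not exceed it. Groups of 3 and 2 separate more often by chance, so the larger share does not show a clearer separation. In the deposited table the groups did not overlap for 1624 rows (8.18%), and for 2533 (12.8%) without that array. All 3 same-numbered differences were above 0 for 7878 probes (19.8%) and below 0 for 6244 (15.7%). In the table they were above 0 for 2382 rows (12%) and below 0 for 3538 (17.8%), so the direction held by more features differed between the sources. With pairs 2 and 3 alone, 11217 probes (28.1%) were higher and 10053 (25.2%) lower in both, and of the deposited rows 4351 (21.9%) were higher and 5238 (26.4%) lower. Fewer pairs have the same sign more often by chance, so these shares cannot be set against those of 3 pairs.

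The pair with NK_T3 replicate 1 was far wider than the others. NR_T3 minus NK_T3 ran from -0.93 at the 10th percentile of probes to 1.84 at the 90th in pair 1. It ran from -0.50 to 0.62 in pair 2 and from -0.62 to 0.64 in pair 3. The share of probes more than 2-fold apart was 30.9% in pair 1, 5.38% in pair 2 and 6.85% in pair 3. The medians were 0.03, -0.05 and 0.09. Over probes, which are not independent and which share both arrays of each pair, the differences of pairs 1 and 2 correlated at r = 0.304, those of pairs 1 and 3 at 0.128 and those of pairs 2 and 3 at 0.0637. The pair on a single slide thus showed little of the pattern of the other pairs, and without pair 1 little was shared between the remaining pairs.

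**Figure D2:**
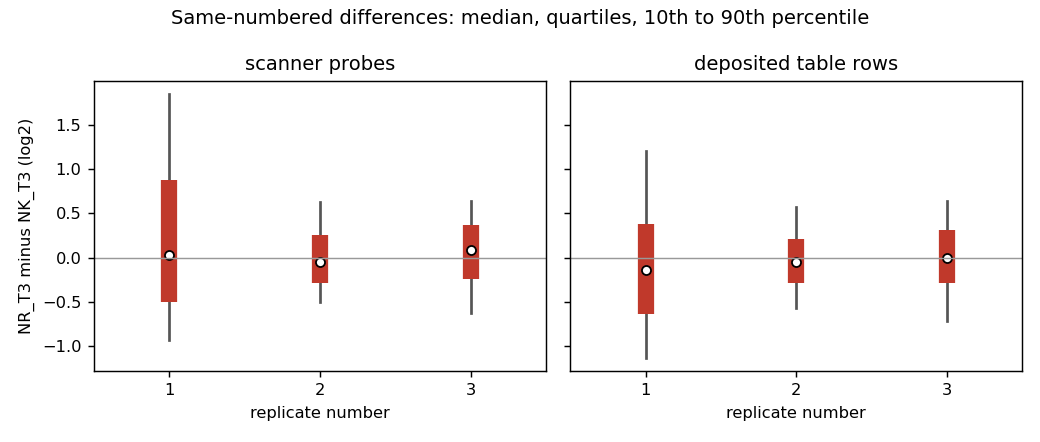
Difference NR_T3 minus NK_T3 (log2, y axis) within each replicate number (x axis) for scanner probes and deposited table rows; white points are medians over features, thick bars the quartiles and thin lines the 10th to 90th percentile. Pair 1, which holds the array scanned alone, spans -0.93 to 1.84 for the probes and the other pairs stay between -0.62 and 0.64.

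Among the probes that met these criteria, the largest difference toward refed livers was on PigEx0043257. Its relative signal was -2.23, -2.88 and -0.29 in NK_T3 replicates 1 to 3 and 2.16, 1.38 and 2.10 in NR_T3 replicates 1 to 3. All 3 refed livers thus stood above all 3 controls, and the control of pair 3 stood well above the other controls. The group means were -1.80 ± 1.35 and 1.88 ± 0.43 (SD, n = 3 each). The difference was 3.68 with a standard error of 1.40, a 95% interval of 0.59 to 6.77 and an adjusted p of 0.823 in limma. With the replicate block the adjusted p was 0.357 and the standard error 1.12. Without NK_T3 replicate 1 the difference was 3.47, its 95% interval ran from -0.18 to 7.11 and its adjusted p was 1. With the block and without that array it was 4.42, with an adjusted p of 0.702. Within pairs it was 4.39, 4.26 and 2.39, the last being the pair on slide 6. In the deposited table, on its own log2 scale, the matching values were 6.82, 6.13 and 8.64 in NK_T3 and 11.08, 10.32 and 11.09 in NR_T3. The 2 probes numbered after it followed it over the 18 arrays of the earlier time points at r = 0.998 and 0.994, and at T3 they differed by 3.48 and 3.54.

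The largest difference toward controls was on PigEx0035821. Controls read 5.21, 5.67 and 4.99, and refed livers read 1.69, 1.59 and 2.25. The pigs within each group lay close together, at 5.29 ± 0.34 in NK_T3 and 1.84 ± 0.36 in NR_T3 (SD, n = 3 each). The difference was -3.44 with a standard error of 1.04, a 95% interval of -5.72 to -1.16 and a limma adjusted p of 0.823. Without NK_T3 replicate 1 it was -3.48 with an adjusted p of 1. With the replicate block the adjusted p was 0.357, and with the block and without that array the difference was -4.08 with an adjusted p of 0.702. The standard error of the main fit also draws on UK_T3 and UR_T3, where the SD on this probe was 1.93 and 2.16. In limma on the 6 NK_T3 and NR_T3 arrays alone its adjusted p was 0.247, the smallest of that fit. For PigEx0043257 and PigEx0052348 it was 0.943 there. The same-numbered differences were -3.52, -4.08 and -2.74, so the pair on slide 6 had the same direction. The deposited row matched by these values gave 14.35, 14.54 and 13.99 in NK_T3 and 10.61, 10.53 and 11.25 in NR_T3, a difference of -3.50. The 2 probes numbered before it followed it at r = 0.999 over the earlier arrays, with T3 differences of -3.34 and -3.27.

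PigEx0052348 was likewise lower in all 3 refed livers than in every control. Controls read 3.29, 3.23 and 1.89 and refed livers -0.26, -0.38 and -0.77. Refed livers were again tightly grouped, at -0.47 ± 0.27, below controls at 2.80 ± 0.79 (SD, n = 3 each). The difference was -3.27 with a standard error of 1.13 and a limma adjusted p of 0.823. With the replicate block the adjusted p was 0.357, without NK_T3 replicate 1 the difference was -3.03 with an adjusted p of 1, and with both changes it was -3.71 with an adjusted p of 0.702. Within pairs it was -3.55, -3.61 and -2.66. The deposited row matched by these values gave 12.28, 12.11 and 10.89 in NK_T3 and 8.68, 8.55 and 8.13 in NR_T3, a difference of -3.30. The probe numbered before it followed it at r = 0.986 over the earlier arrays and differed by -2.72.

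**Figure D3:**
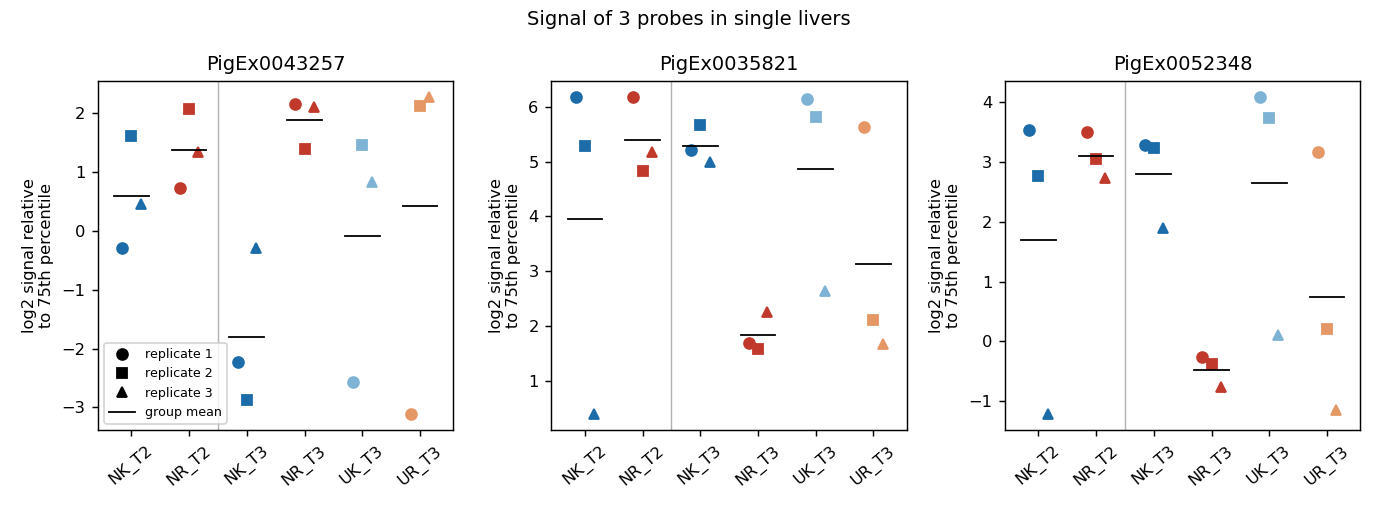
Relative signal (log2, minus the array's 75th percentile, y axis) of 3 probes in single livers of 6 groups (x axis); marker shapes give the replicate number and black lines the mean of 3 livers, and the grey line separates T2 from T3. For PigEx0035821 the NR_T3 livers sit between 1.59 and 2.25 and the NK_T3 livers between 4.99 and 5.67, while 1 NK_T2, 1 UK_T3 and 2 UR_T3 livers also sit at 2.64 or below.

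Single pigs of other groups reached the same low levels on the probes that were low in refed livers. Over all 30 livers, PigEx0035821 ranged from 0.39 to 6.27 with no value between 2.64 and 4.42, which left 10 livers below the gap and 20 above it. PigEx0052348 ranged from -1.22 to 4.09 with no value between 0.20 and 1.89, again with 10 livers below and 20 above. The 10 livers below the gap were the same for both probes, 10 of 10. They were all 3 of NR_T3, 2 of UR_T3 and 1 each of UK_T3, NK_T2, UR_T2, N_T1 and U_T1, the last 2 groups being pigs of normal and low birth weight sampled before restriction. None of NK_T3, NR_T2 or UK_T2 was below it. Low levels on these probes were thus present in pigs that had never been restricted, and no intermediate level was measured in any group.

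PigEx0043257 showed a gap as well, between -2.23 and -0.29, with 6 livers below and 24 above. The 6 were 2 of NK_T3 and 1 each of U_T1, UK_T2, UK_T3 and UR_T3. Of these 6, 0 were among the 10 livers low on PigEx0035821. Between the 2 groups compared, NK_T3 held 2 low livers and NR_T3 held 0, and the NR_T3 livers stood where most pigs of the series stood. A refed liver of low birth weight (UR_T3) was also below the gap. A gap over 1.5 with at least 3 livers on each side was found in 43 of the 32105 probes well above background on the 6 arrays (0.134%), in 2 of the 452 probes higher by the criteria above (0.442%) and in 4 of the 480 lower ones (0.833%). The gap was looked for after the values of these probes had been seen, and runs of probes with consecutive numbers are counted singly.

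The 3 probes did not keep their difference at the end of restriction, in other pigs. On PigEx0035821, NK_T2 read 6.18, 5.28 and 0.39 and NR_T2 read 6.18, 4.82 and 5.17, a difference of 1.44. On PigEx0052348, NK_T2 read 3.53, 2.76 and -1.22 and NR_T2 read 3.51, 3.06 and 2.73, a difference of 1.41. In both, replicate 3 of the controls was the only low liver. On PigEx0043257, NK_T2 read -0.29, 1.62 and 0.46 and NR_T2 read 0.73, 2.07 and 1.33, a difference of 0.78 with overlapping groups.

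In low birth weight pigs at T3 the same probes overlapped between refed and control livers. PigEx0035821 read 6.13, 5.82 and 2.64 in UK_T3 and 5.62, 2.12 and 1.67 in UR_T3, and PigEx0052348 read 4.09, 3.74 and 0.10 against 3.16, 0.20 and -1.15. UR minus UK was -1.73 and -1.91, both with a limma adjusted p of 1. PigEx0043257 read -2.57, 1.46 and 0.83 in UK_T3 and -3.12, 2.11 and 2.27 in UR_T3, a difference of 0.52. The test of whether the difference itself depended on birth weight, an interaction term in the same limma fit, gave 3.16, -1.72 and -1.36 for the 3 probes in the order of their sequences. All 3 had an adjusted p of 0.9996, with 95% intervals that included 0.

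Across all probes that interaction test called 0 of 39929, with 921 (2.31%) at an unadjusted p under 0.05. Leaving out NK_T3 replicate 1 it called 0 with 672 (1.68%), with the replicate block 0 with 2778 (6.96%), and with both changes 0 with 2387 (5.98%). In the deposited table it called 0 rows with 598 at an unadjusted p under 0.05, 0 with 446 without that array, 0 with 1191 under the block and 0 with 965 under both. Leaving out UK_T3 replicate 2 gave 1 called probe, and leaving out UR_T3 replicate 1 gave 1 called row. The main fits therefore did not detect that refed minus control differed between birth weights. At this precision that does not show that the 2 birth weights are alike.

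The difference at T3 was next set against that at the end of restriction, which came from other pigs of normal birth weight. Over 39836 probes, NR minus NK at T3 correlated with NR minus NK at T2 at r = 0.318 (Spearman's rho = 0.373). Probes are not independent, and NR_T2 replicate 3 lay on slide 3 together with NR_T3 replicates 1 and 2. Without NR_T2 replicate 3 the correlation was 0.186, without NK_T3 replicate 1 it was 0.17, and without both it was 0.082. The slide 6 pair alone correlated with the T2 difference, NR_T2 replicate 3 left out, at 0.134. The relation thus rested in large part on these 2 arrays. With refed and control livers of low birth weight at T3, the correlation was -0.051, and -0.024 without NK_T3 replicate 1.

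The probes selected for their T3 difference leaned the same way at T2. Of the 450 higher ones measured there, 393 (87.3%) were also higher in NR_T2 than in NK_T2, against 48.7% of all probes. Of the 480 lower ones, 166 (34.6%) were higher. Without NR_T2 replicate 3 the shares were 79.0%, 37.9% and, for all probes, 49.8%. In low birth weight pigs at T3 the higher set did not lean the same way: 133 of 452 (29.4%) were higher in UR_T3 than in UK_T3, with 181 of 480 (37.7%) for the lower set and 48.9% for all probes. The part of slide in these shares was not tested beyond leaving out the array.

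**Figure D4:**
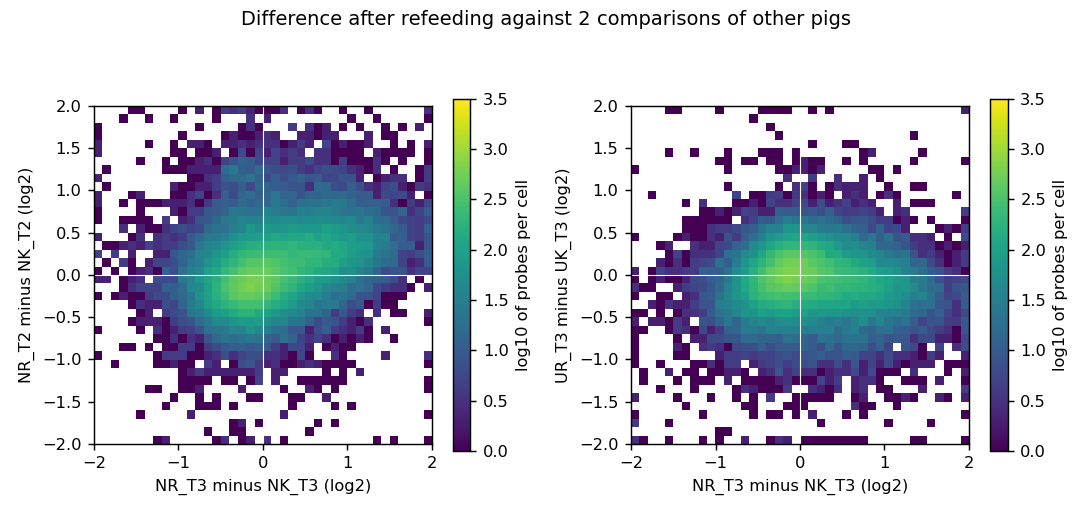
Difference NR_T3 minus NK_T3 (log2, x axis) against NR_T2 minus NK_T2 (left) and UR_T3 minus UK_T3 (right, y axes, log2), as counts of probes per cell on a log10 colour scale; differences beyond 2 in size are drawn in the outermost cells. The left cloud tilts upward (r = 0.318 over 39836 probes) and the right one does not (r = -0.051).

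Counts of probes detected in a single group were unequal as well, and were a small part of all probes. Of 60900 probes, 213 were well above background in all 3 refed livers and in no control, and 6 showed the reverse. Without NK_T3 replicate 1 the counts were 230 and 26, and without replicate 1 of both groups 361 and 45. Fewer arrays make this rule easier to meet, so the rise does not show a clearer difference. All 6 arrays detected 32105 probes and none detected 14639. The share of probes well above background was 68.8%, 67.2% and 71.4% in NR_T3 and 55.0%, 66.4% and 67.0% in NK_T3, and its part in these counts was not tested.

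Probe composition also moved with the arrays. The deviation of an array from the mean of the 12 T3 arrays correlated with probe GC content at Spearman's rho = 0.359 in NK_T3 replicate 3 and 0.321 in NR_T3 replicate 3, both on slide 6, and at -0.07 to -0.27 on the other 4. The difference NR_T3 minus NK_T3 itself correlated with GC at 0.084, and at 0.031 without NK_T3 replicate 1. In 4 classes of GC content of about equal size, from low to high, its median was 0.03, -0.07, 0.00 and 0.17. The class richest in GC held 346 probes higher and 118 lower at an unadjusted p under 0.05, while the classes from low to high below it held 209 and 76, 212 and 204, and 259 and 221, so the lean toward higher signals was in the lowest and the richest class. In the richest class the median was 0.04 without NK_T3 replicate 1. The part of GC content in the single-probe differences was not tested.

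Signals of probes with nearby numbers were also compared with each other. Over the 18 arrays of the earlier time points, probes with neighbouring numbers correlated at a median r of 0.573, and 19.7% of such pairs exceeded 0.9. Pairs 1000 numbers apart had a median of 0.0005, and 0.0354% exceeded 0.9. The files do not say that neighbouring numbers share a target, so this comparison cannot check the measurement of a known one. The 2 probes after PigEx0043257 and the 2 before PigEx0035821 met the same selection. Their T3 differences are therefore no separate support. Each of the 3 probes shown had at least 1 neighbouring number that followed it over those arrays at r of 0.986 or more, and other neighbours did not follow: the 2 numbered after PigEx0035821 correlated with it at 0.402 and 0.423, and the one 2 numbers after PigEx0052348 at 0.208.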

How the data were processed

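Per the file headers, the 1-colour Agilent arrays were read with Feature Extraction 10.5.1.1. The deposited scanner files give processed signal as an intensity, background subtracted and not normalized between arrays, per the file headers. The authors' deposited table holds linear intensity with no statement of its processing in the sources used here. Processed signal quantile normalized over the 12 T3 arrays equalled exactly 1 probe in 7144 of its 19864 rows (36.0%) (root mean square difference in log2 under 0.05), and the making of the other rows is not known.

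Control spots were left out and outlier spots set to missing (155 of the probes kept had one in the T3 arrays). The filter kept the 39930 probes that some T3 group had well above background in each of its 3 arrays. limma 3.58.1 in R 4.3.3 (lmFit, eBayes) was fitted to all 12 T3 arrays with a mean per group. p-values were two-sided. Arrays were not replicated per pig, and their number limits the precision. An unblocked limma fit of NR_T3 minus NK_T3 was also run on simulated data. The blocks, the interaction, the choice of probes and the row match were not simulated.

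Same-numbered NK_T3 and NR_T3 arrays deviated from their group means together (r = 0.223, 0.272 and 0.602, and in the deposited rows r = 0.168, 0.235 and 0.517). By the rule that all 3 exceed 0.1, replicate number was used as a pairing block in alternative fits, while the main fit had no block. However, NR_T3 replicate 1 correlated more with NK_T3 replicate 2 (0.274) and NR_T3 replicate 2 more with NK_T3 replicate 1 (0.341). Deviations within a group share 1 group mean, so the 3 correlations are not independent. The rule therefore cannot show that replicate number pairs the pigs. Replicate 3 shares a slide, so the slide cannot be told apart from the pairing there. Alternatives were quantile normalization, normexp (offset 50), other filters, slide or scan blocks, array weights, other sets of arrays in the fit, and leaving out each array. The 3 probes named, 1 higher and 2 lower in NR_T3, are among the 5 per direction with the largest difference under the criteria given in the text. A further probe under that rule is not reported here. The members, lists and tests were chosen with earlier results of these data known. The lists, 467 gene symbols in 30 sets, could not be applied because no probe number or protein identifier could be paired with a gene symbol here.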

Additional observations from a re-analysis of the deposited data

How the results depend on the processing

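Of 92 alternatives for the counts of calls, 88 kept 0. The exceptions were 15 probes (8 higher, 7 lower in NR_T3, smallest adjusted p 0.00356) with a replicate block in a fit of the 5 NK_T3 and NR_T3 arrays other than NK_T3 replicate 1, an alternative chosen after seeing the data and resting on 2 pairs; 1 table row with array weights (adjusted p 0.0499); and, among fits leaving out 1 array, 1 probe in the birth weight interaction without UK_T3 replicate 2 and 1 table row in it without UR_T3 replicate 1. Leaving out an array gave 0 to 0 calls for NR_T3 minus NK_T3 in both sources and 0 to 1 for the interaction in both. For NR_T3 minus NK_T3 the smallest limma adjusted p in those fits was 0.0724 among probes, without NK_T3 replicate 3. Among table rows it was 0.0519, without NR_T3 replicate 3. PigEx0043257, PigEx0035821 and PigEx0052348 were among the 15, with adjusted p of 0.0382, 0.0148 and 0.0148; over all alternatives each probe shown kept its direction, with adjusted p up to 1. Leaving out an array moved the number of probes at an unadjusted p under 0.05 between 636 without NK_T3 replicate 1 and 6184 without NK_T3 replicate 3. It was 2526 without NK_T3 replicate 2, 799 without NR_T3 replicate 1, 4895 with array weights, 3592 with scan as a block, 1200 with slide as a block, 755 in the 6 arrays alone, 2466 there with a replicate block, and 4920 with all 30 arrays. Among the deposited rows, leaving out an array moved it between 466 (NK_T3 replicate 1) and 2332 (NK_T3 replicate 3), and array weights gave 2366. The replicate block moved this number from 1645 to 5535 and changed no call. The causes were not tested. Fits of gene lists were not run, as no feature could be paired with a gene symbol here. The share of probes well above background was lowest in UR_T3 replicate 2 (53.6%) and NK_T3 replicate 1 (55.0%).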
